A study of Homo sapiens with 6 samples.

Results

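The endoplasmic reticulum (ER) folding set described here comprises 37 genes for chaperones, disulfide isomerases, glucosidases and lectins of the ER, for factors that degrade misfolded proteins, and for the sensors that report on folding load. They were chosen by gene symbol in the deposited expression table, and each of the 37 symbols matched 1 of its 60612 genes. All 37 passed the filter on low counts. RNA was sequenced from A549 cells, an established human lung adenocarcinoma line of epithelial type, in 3 libraries after knockdown of GSE1 by siRNA (siGSE1) and in 3 after a negative control siRNA (control). Both groups were harvested 48 hours after transfection, and they share the cell line, the transfection and the library kit. A549 is a single tumour line, and neither the siRNA sequences nor their number is given in the labels. Replicates are numbered 1 to 3 in each group without saying whether they were separate cultures, so the p-values cover the spread among these 6 libraries alone, and that spread may be technical.

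Secreted and membrane proteins enter the ER through the SEC61 channel and fold there with the help of the Hsp70 chaperone HSPA5, the Hsp90 chaperone HSP90B1 and the disulfide isomerases. N-glycoproteins are trimmed by glucosidases and held by the lectins calnexin and calreticulin until folded, and failures are passed by EDEM proteins and the HRD1 ligase to the proteasome. When unfolded proteins accumulate, ATF6 and the IRE1 (ERN1) and XBP1 pair raise transcription of these same genes, a program called the unfolded protein response. Its promoters carry the ER stress response elements ERSE (CCAAT, 9 bases of any kind, CCACG) and ERSE-II (ATTGG, 1 base of any kind, CCACG), and XBP1 also binds a UPRE core (TGACGTGG).

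Those elements were searched on both strands in the 300 bases around the first listed start of each gene, 250 before it and 50 after, in RefSeq sequence of GRCh38.p14. Of the 37 genes, 33 had an entry. ERSE was found in 6 of them, against 22 of 27305 genes in the whole table of promoters (0.0806%). ERSE-II was found in 3, against 15 (0.0549%), and the UPRE core in 2, against 217 (0.795%). The sites are shown because the results below can be read against them, each with up to 5 flanking bases, 5′ to 3′ in the direction of the element and on the strand given, with the letters it spans in capitals:
HSPA5 ERSE (chr9:125241386-125241414, minus strand): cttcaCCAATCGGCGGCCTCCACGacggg
HSP90B1 ERSE (chr12:103930211-103930239, plus strand): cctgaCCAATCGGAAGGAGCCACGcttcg
HSP90B1 ERSE (chr12:103930316-103930344, minus strand): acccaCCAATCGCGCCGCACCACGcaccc
HYOU1 ERSE-II (chr11:119057375-119057395, plus strand): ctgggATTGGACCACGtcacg
HYOU1 ERSE-II (chr11:119057269-119057289, plus strand): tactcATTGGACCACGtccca
HYOU1 UPRE core (chr11:119057381-119057398, minus strand): ccccgTGACGTGGtccaa
DNAJC10 UPRE core (chr2:182716127-182716144, minus strand): taggtTGACGTGGcggtg
SDF2L1 ERSE-II (chr22:21642109-21642129, minus strand): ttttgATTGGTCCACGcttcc
CRELD2 ERSE (chr22:49918549-49918577, minus strand): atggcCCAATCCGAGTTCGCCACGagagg
CANX ERSE (chr5:179698773-179698801, plus strand): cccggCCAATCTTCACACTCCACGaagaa
CALR ERSE (chr19:12938379-12938407, minus strand): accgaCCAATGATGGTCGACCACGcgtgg
HERPUD1 ERSE-II (chr16:56932020-56932040, plus strand): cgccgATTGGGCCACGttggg
XBP1 ERSE (chr22:28800598-28800626, minus strand): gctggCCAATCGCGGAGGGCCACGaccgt
The second ERSE of HSP90B1 lies on the opposite strand to the first. In HYOU1 the first of the ERSE-II sites overlaps a UPRE core at its CCACG end. PDIA6 had no match at its first listed start and an ERSE at its other one. A match is a description of the letters only.

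Upstream sequence is given in full for HSPA5, the best known target of the response, and for GANAB and MESD, the members with the largest increases, as far as it lies outside the span of the gene in the deposited table:
HSPA5 (chr9:125241344-125241593, minus strand): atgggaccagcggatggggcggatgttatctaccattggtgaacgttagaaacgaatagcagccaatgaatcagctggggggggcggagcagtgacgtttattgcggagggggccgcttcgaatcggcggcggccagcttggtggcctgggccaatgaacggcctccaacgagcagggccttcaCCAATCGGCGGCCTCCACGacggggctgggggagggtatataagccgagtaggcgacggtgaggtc
GANAB (chr11:62646727-62646863, minus strand): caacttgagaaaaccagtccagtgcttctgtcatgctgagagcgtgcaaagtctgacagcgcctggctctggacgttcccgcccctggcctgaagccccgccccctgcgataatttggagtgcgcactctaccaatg
MESD (chr15:80989829-80990069, minus strand): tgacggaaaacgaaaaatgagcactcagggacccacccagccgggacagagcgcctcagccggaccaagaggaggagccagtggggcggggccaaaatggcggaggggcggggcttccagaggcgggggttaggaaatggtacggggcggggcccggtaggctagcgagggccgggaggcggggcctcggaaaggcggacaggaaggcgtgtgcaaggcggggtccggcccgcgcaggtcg
The capitals mark the ERSE of HSPA5. The windows of GANAB and MESD held no exact match to any of the 3 elements.

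Library totals were 17521807 to 19914346 counts in siGSE1 cells and 14475992 to 20755506 in control cells. The smallest count of any member was 163, for FKBP14, which carries a counting error of 7.83%. Control replicate 2 stood apart from the other control libraries, with a chi-square per degree of freedom of 10.1 and 8.97 against them, where they differed from each other by 4.59 and the siGSE1 libraries by 2.49 to 3.32. GSE1 itself, in the order of replicates 1, 2 and 3 as throughout, had 3.84, 4.06 and 3.73 FPKM in siGSE1 cells, against 7.37, 8.06 and 7.92 FPKM in control cells, a log2FC of -1.03 ± 0.06 (SE, adjusted p = 2.14e-08). Of the epithelial markers, KRT7 averaged 579 and 576 FPKM in siGSE1 and control cells and CDH1 28.2 and 29.9, while EPCAM was low at 0.67 and 0.96. KRT8 and KRT18 were lower in siGSE1 cells, with log2 fold changes of -0.26 and -0.25. All 6 leukocyte markers, 4 endothelial markers and 6 markers of professional secretory cells, and 6 of 7 fibroblast markers, were under 1 FPKM in both groups, and the secretory markers SCGB1A1, INS and PRSS1 were listed at 0 in every library. Summed fibroblast markers ran from 2.08 to 2.28 FPKM in siGSE1 libraries and from 1.3 to 1.99 in control libraries, and their part in the results was not tested. In bulk RNA, fewer cells of a type and less RNA per cell cannot be told apart.

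Most of the 37 genes were higher in siGSE1 cells. By edgeR's quasi-likelihood test at an adjusted p of at most 0.05, 21 were higher and 2 were lower, and 14 did not pass. Over all 15937 genes tested, 10.9% were higher and 9.02% lower. The median log2 fold change (log2FC, siGSE1 over control) of the 37 was 0.20, against 0.00 over all genes tested. The 3 siGSE1 values lay above all 3 control values, in FPKM (fragments per kilobase of exon, scaled by library total), in 26 of the 37 genes and below them in 4, against 21.2% and 14.9% of all genes tested. Calls were more frequent among abundant genes. Of the 29 members with at least 10 FPKM on average, 18 were higher and 2 lower, where 16% and 16.4% of the 4165 genes of that abundance were. The 37 genes were chosen with earlier results of these data known, so these counts are descriptions and no test was made over the set.

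The increases were small, with the exception of 4 genes. MESD, GANAB, ERO1A and FKBP14 passed an adjusted p of 0.001 and lay at least 0.5 from 0 on the log2 scale, as did 2.55% of all genes tested. MESD and GANAB were at least 2-fold higher, as were 0.759% of all genes tested. Beyond these 4, the other 17 called increases had log2 fold changes between 0.17 and 0.38. Summed over the 37 genes, the share of all FPKM was 0.733%, 0.720% and 0.727% in siGSE1 cells and 0.614%, 0.630% and 0.594% in control cells. Scaling to all FPKM in this way (TPM scaling) raised the log2 fold changes of all genes tested by a median of 0.06 over the main analysis. Without siGSE1 replicate 1, 13 members were higher and 1 lower, while over all genes 1212 were higher and 986 lower. Without control replicate 2, 22 members were higher and 1 lower, while over all genes 1929 were higher and 1653 lower. Without control replicate 3, 16 members were higher and 3 lower, with a median log2FC of 0.15, while over all genes 1478 were higher and 1414 lower. With TPM scaling 26 members were higher and 0 lower, while over all genes 2544 were higher and 929 lower, against 1730 and 1437 in the main analysis. With trends of GC content and length removed, 15 members were higher and 2 lower, while over all genes 1269 were higher and 1959 lower.

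**Figure D1:**
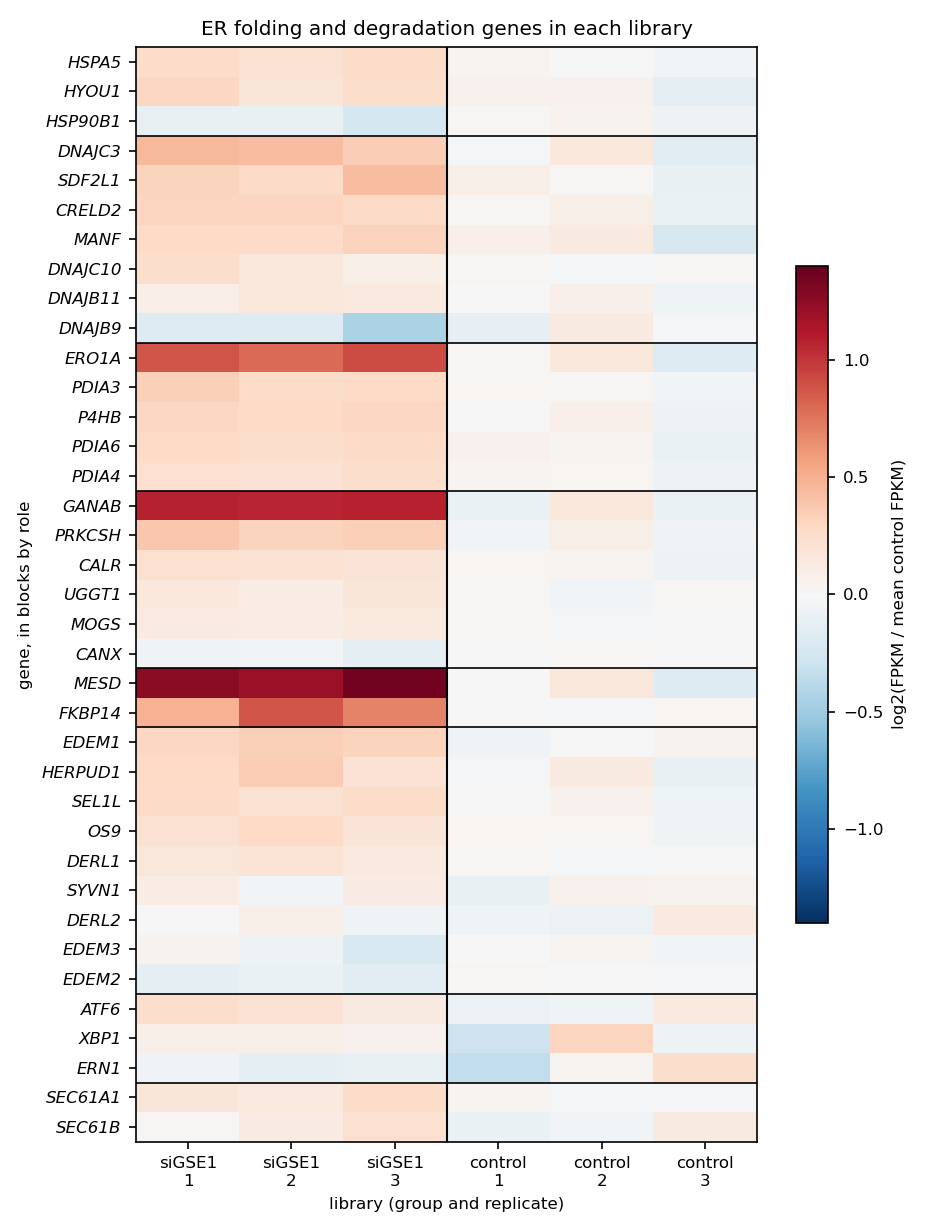
Each cell gives log2 of the FPKM of a gene in a library over its mean control FPKM, with the siGSE1 libraries on the left and genes in blocks by role. MESD, GANAB and ERO1A are high in all 3 siGSE1 libraries, and XBP1 and ERN1 differ more among the control libraries than between the groups.

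**Figure D2:**
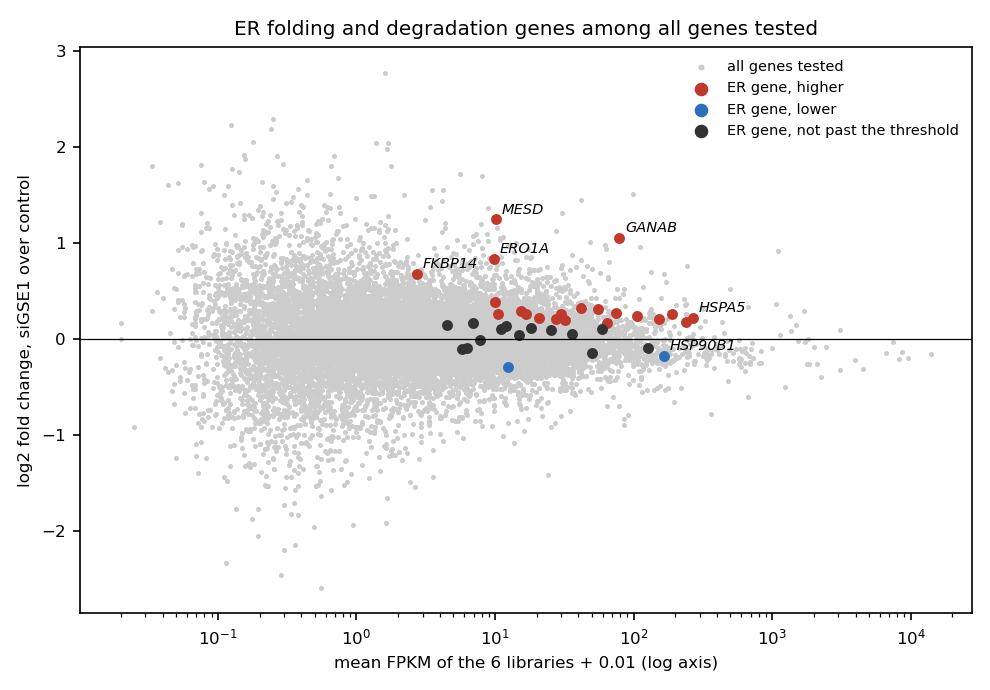
Log2 fold change (siGSE1 over control) against mean FPKM on a log axis for all genes tested, with the 37 ER genes in colour by their call. Of the 37, 30 lie above 0, and MESD and GANAB lie above 1.

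HSPA5, also known as BiP, binds exposed hydrophobic stretches of unfolded chains, and it was the most abundant of the 37. It had 295, 287 and 295 FPKM in siGSE1 cells, against 254, 247 and 239.7 FPKM in control cells. The siGSE1 values were all above the control values, by 1.16-fold on average, a log2FC of 0.22 ± 0.05 (SE, adjusted p = 0.00450). HYOU1, a large Hsp70 relative that exchanges the nucleotide of HSPA5, had 30.9, 28.5 and 29.9 FPKM in siGSE1 cells, against 26.3, 26.4 and 23.2 FPKM in control cells, again without overlap, a log2FC of 0.21 ± 0.06 (SE, adjusted p = 0.0259). HSP90B1, the Hsp90 of the ER, moved the other way. It had 163, 162 and 148 FPKM in siGSE1 cells, against 177, 181 and 167 FPKM in control cells, so that every siGSE1 value was below every control value, a log2FC of -0.18 ± 0.05 (SE, adjusted p = 0.0317). Both ERSE-bearing HSPA5 and HSP90B1 were thus called, in opposite directions. The call of HYOU1 was lost without siGSE1 replicate 1, siGSE1 replicate 3 or control replicate 3 and with trends of GC content and length removed (adjusted p from 0.00194 to 0.159 over the 17 alternatives). The call of HSP90B1 was lost without siGSE1 replicate 1, siGSE1 replicate 2, siGSE1 replicate 3 or control replicate 1, with TPM scaling, under limma on log2(FPKM + 1) and on log2(FPKM + 0.1) (adjusted p from 0.0113 to 0.180 over the 17 alternatives).

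Of 7 J proteins and other cofactors of HSPA5, 4 were higher, 1 was lower and 2 did not pass. DNAJC3, a J protein that also inhibits the kinase PERK, had 11.7, 11.5 and 10.8 FPKM in siGSE1 cells, against 8.41, 9.47 and 7.72 FPKM in control cells, the largest increase of the 7, a log2FC of 0.38 ± 0.07 (SE, adjusted p = 0.00206). SDF2L1, a partner of J proteins in the ER lumen, had 60.2, 58.5 and 65.3 FPKM in siGSE1 cells, against 51.3, 49.0 and 45.3 FPKM in control cells, a log2FC of 0.31 ± 0.07 (SE, adjusted p = 0.00507). Both showed no overlap between the groups. CRELD2, an ER protein with isomerase-like motifs, had 11.5, 11.6 and 11.3 FPKM in siGSE1 cells, against 9.47, 9.91 and 8.77 FPKM in control cells, a log2FC of 0.26 ± 0.07 (SE, adjusted p = 0.0101). MANF, which binds HSPA5 and is also secreted, had 32.5, 32.4 and 33.5 FPKM in siGSE1 cells, against 28.3, 29.4 and 23.1 FPKM in control cells, a log2FC of 0.26 ± 0.08 (SE, adjusted p = 0.0320). Neither gene overlapped between the groups, and control replicate 3 was the lowest library in both. DNAJB9, a J protein that represses IRE1 through HSPA5, had 11.9, 11.9 and 9.99 FPKM in siGSE1 cells, against 12.5, 14.8 and 13.3 FPKM in control cells, a log2FC of -0.29 ± 0.09 (SE, adjusted p = 0.0285), lower in all 3 siGSE1 libraries. DNAJB11 and DNAJC10, a J protein and a J protein with disulfide reductase activity, had log2 fold changes of 0.10 and 0.14 and did not pass (adjusted p = 0.263 and 0.0962). The ratio of DNAJC3 to DNAJB9 within a library, which no scaling of libraries can change, was 0.980, 0.966 and 1.08 in siGSE1 cells and 0.674, 0.640 and 0.579 in control cells (exact permutation p = 0.1). The call of MANF was lost without siGSE1 replicate 1, siGSE1 replicate 2, siGSE1 replicate 3 or control replicate 3, under limma on log2(FPKM + 1), on log2(FPKM + 0.1) and with trends of GC content and length removed (adjusted p from 0.00112 to 0.128 over the 17 alternatives). The call of DNAJB9 was lost without siGSE1 replicate 3 or control replicate 2, with TPM scaling, under limma on log2(FPKM + 1) and on log2(FPKM + 0.1) (adjusted p from 0.0137 to 0.153 over the 17 alternatives). DNAJB11 overlaps TBCCD1 and CRELD2 overlaps ALG12 on the other strand, with 15.9% and 40.5% as many counts, and reads of overlapping genes cannot be told apart without strand.

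All 5 disulfide genes were higher. P4HB, the classical protein disulfide isomerase, had 209.5, 207 and 209 FPKM in siGSE1 cells, against 170.3, 179 and 163 FPKM in control cells, a log2FC of 0.26 ± 0.05 (SE, adjusted p = 0.00165). PDIA3, the isomerase that works with calnexin and calreticulin on glycoproteins, had 84.3, 80.3 and 81.7 FPKM in siGSE1 cells, against 68.6, 67.6 and 65.1 FPKM in control cells, a log2FC of 0.27 ± 0.05 (SE, adjusted p = 0.00155). The siGSE1 libraries were tightly grouped and all above the control libraries in both. PDIA6, which also acts on the sensors IRE1 and PERK, had 116, 113 and 115 FPKM in siGSE1 cells, against 99.3, 97.9 and 89.4 FPKM in control cells, a log2FC of 0.24 ± 0.05 (SE, adjusted p = 0.00528). PDIA4, an isomerase with an additional thioredoxin domain, had 166, 162 and 167 FPKM in siGSE1 cells, against 145, 143 and 135 FPKM in control cells, a log2FC of 0.21 ± 0.05 (SE, adjusted p = 0.00969). All 4 isomerase genes were free of overlap, with control replicate 3 the lowest library. ERO1A, the oxidase that recharges P4HB, had 12.8, 12.1 and 13.2 FPKM in siGSE1 cells, against 7.05, 7.72 and 6.15 FPKM in control cells, a 1.78-fold increase, a log2FC of 0.83 ± 0.08 (SE, adjusted p = 1.94e-06). The ratio of P4HB to ERO1A was 16.3, 17.1 and 15.9 in siGSE1 cells and 24.1, 23.3 and 26.5 in control cells (exact permutation p = 0.1), lower in all 3 siGSE1 libraries. The call of PDIA4 was lost without siGSE1 replicate 1 or siGSE1 replicate 3 (adjusted p from 7.68e-04 to 0.0571 over the 17 alternatives).

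Of the 6 genes of the calnexin cycle and its glucosidases, 3 were higher, 0 were lower and 3 did not pass, and the largest change was in glucosidase II. GANAB, the catalytic alpha subunit of glucosidase II, which removes the inner glucose residues of N-glycans, had 107, 106 and 107 FPKM in siGSE1 cells, against 47.6, 56.6 and 47.7 FPKM in control cells, a 2.07-fold increase, a log2FC of 1.05 ± 0.06 (SE, adjusted p = 3.86e-08). Its lowest siGSE1 value was far above its highest control value, that of control replicate 2. PRKCSH, the beta subunit that keeps GANAB in the ER, had 47.6, 45.6 and 46.0 FPKM in siGSE1 cells, against 35.7, 38.8 and 35.3 FPKM in control cells, a log2FC of 0.32 ± 0.05 (SE, adjusted p = 6.74e-04). MOGS, glucosidase I, which removes the outermost glucose, had 26.2, 26.1 and 26.5 FPKM in siGSE1 cells, against 24.5, 23.9 and 24.1 FPKM in control cells, and did not pass (log2 fold change 0.09, adjusted p = 0.237). The ratio of GANAB to PRKCSH was 2.24, 2.33 and 2.34 in siGSE1 cells and 1.33, 1.46 and 1.35 in control cells (exact permutation p = 0.1), and that of GANAB to MOGS was 4.07, 4.07 and 4.05 in siGSE1 cells and 1.95, 2.37 and 1.98 in control cells (exact permutation p = 0.1). Each of these ratios was higher in all 3 siGSE1 libraries.

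The 6 tested genes next to GANAB on chromosome 11, 3 on each side in order of start position, were not called. Among them, INTS5 and B3GAT3 on either side had log2 fold changes of -0.05 and -0.19 (adjusted p = 0.781 and 0.0612). GANAB (ENSG00000089597) spans 62624826 to 62646726 on the minus strand in the deposited hg38 table.

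Of the lectins, CALR, soluble calreticulin, had 259, 256 and 250.5 FPKM in siGSE1 cells, against 226, 227 and 210.5 FPKM in control cells, a log2FC of 0.18 ± 0.05 (SE, adjusted p = 0.0198). CANX, its membrane-bound relative calnexin, had 127, 128 and 119.8 FPKM in siGSE1 cells, against 130.0, 133 and 130.0 FPKM in control cells, and did not pass (log2 fold change -0.09, adjusted p = 0.184). Both carry an ERSE. The ratio of CALR to CANX was 2.04, 2.00 and 2.09 in siGSE1 cells and 1.74, 1.71 and 1.62 in control cells (exact permutation p = 0.1), with no overlap between the groups. UGGT1, the glucosyltransferase that returns incompletely folded glycoproteins to the lectins, had 18.5 to 19.3 FPKM in siGSE1 cells and 16.8 to 17.5 in control cells and did not pass (log2 fold change 0.11, adjusted p = 0.132). The call of CALR was lost without siGSE1 replicate 1, siGSE1 replicate 2, siGSE1 replicate 3 or control replicate 3 and with trends of GC content and length removed (adjusted p from 0.00146 to 0.0991 over the 17 alternatives).

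**Figure D3:**
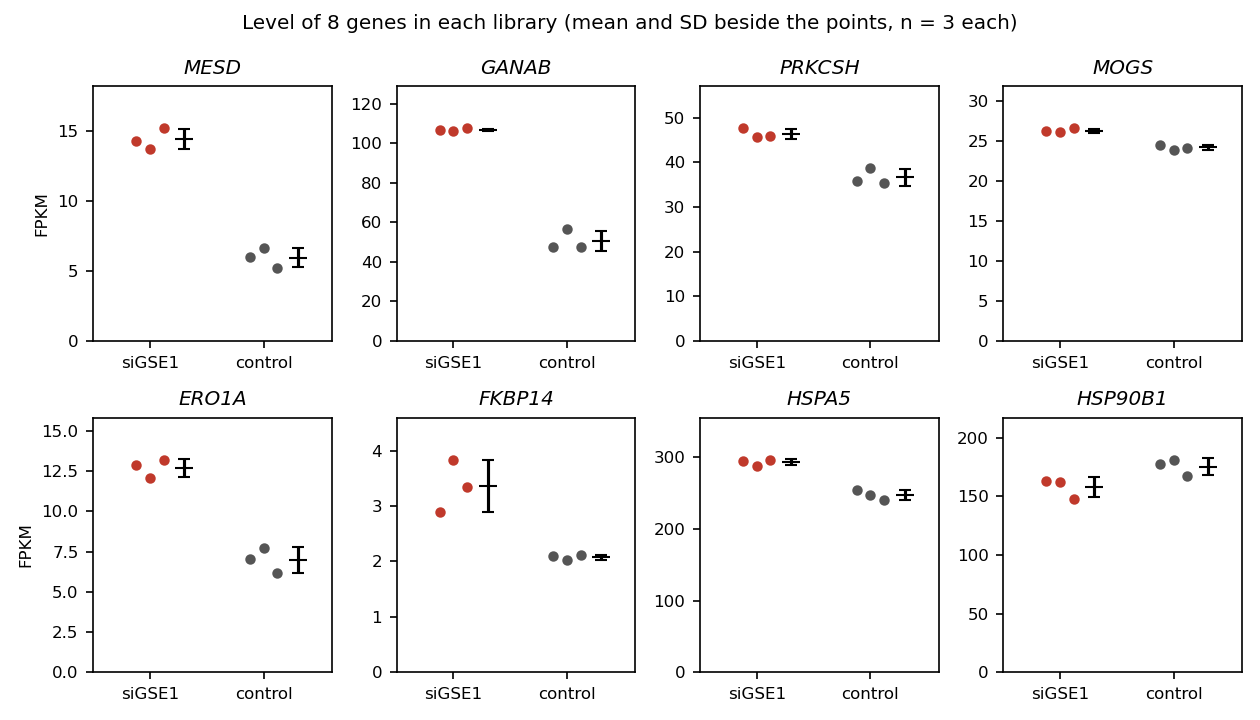
FPKM of 8 genes in each library, siGSE1 left and control right, with the mean and SD beside the points and each axis starting at 0. MESD, GANAB and ERO1A separate widely, PRKCSH and HSPA5 by less, and HSP90B1 is lower in siGSE1 cells.

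MESD had the largest increase of the 37. The gene encodes a chaperone with a narrow clientele, in particular the Wnt co-receptors LRP5 and LRP6. It had 14.3, 13.7 and 15.2 FPKM in siGSE1 cells, against 5.98, 6.63 and 5.23 FPKM in control cells, a 2.37-fold increase, a log2FC of 1.24 ± 0.08 (SE, adjusted p = 5.40e-08). MESD (ENSG00000117899) spans 80946289 to 80989828 on the minus strand of chromosome 15 in the deposited hg38 table. The 6 tested genes next to MESD, 3 on each side in order of start position, were not called. Among them was CEMIP (log2 fold change 0.44, adjusted p = 0.125), which overlaps MESD on the other strand and had 7.42% as many counts. FKBP14, a prolyl isomerase of the ER known for its part in collagen folding, was the least abundant member. It had 2.90, 3.83 and 3.35 FPKM in siGSE1 cells, against 2.09, 2.03 and 2.11 FPKM in control cells, a log2FC of 0.67 ± 0.11 (SE, adjusted p = 6.11e-04), and siGSE1 replicate 2 was the highest library. Neither MESD nor FKBP14 overlapped between the groups.

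Among the Wnt co-receptors that MESD folds and related receptors, LRP6 was higher in siGSE1 cells, SORL1, LRP4 and LRP8 were lower, and LRP5 and LRP1 were not called. LRP6 averaged 15.7 ± 0.34 FPKM in siGSE1 cells and 13.2 ± 0.11 FPKM in control cells (SD, n = 3 each, log2 fold change 0.23, adjusted p = 0.00474). SORL1 averaged 1.45 ± 0.04 FPKM in siGSE1 cells and 1.99 ± 0.15 FPKM in control cells (SD, n = 3 each, log2 fold change -0.48, adjusted p = 2.89e-04). LRP4 averaged 4.02 ± 0.28 FPKM in siGSE1 cells and 5.29 ± 0.44 FPKM in control cells (SD, n = 3 each, log2 fold change -0.43, adjusted p = 0.00131). LRP8 averaged 5.45 ± 0.08 FPKM in siGSE1 cells and 6.65 ± 0.45 FPKM in control cells (SD, n = 3 each, log2 fold change -0.31, adjusted p = 0.00125). SORL1 is a sorting receptor, LRP4 a receptor of agrin and LRP8 a receptor of reelin. LRP5 averaged 31.5 ± 1.77 FPKM in siGSE1 cells and 32.3 ± 2.98 FPKM in control cells (SD, n = 3 each), and LRP1 7.70 ± 0.64 FPKM in siGSE1 cells and 7.95 ± 0.83 FPKM in control cells (SD, n = 3 each), with no call for either (adjusted p = 0.563 and 0.565). LRPAP1, a further chaperone of these receptors, averaged 7.28 ± 0.42 FPKM in siGSE1 cells and 6.87 ± 0.66 FPKM in control cells (SD, n = 3 each) and was not called (adjusted p = 0.606). With trends of GC content and length removed, the call of LRP6 was lost (adjusted p = 0.0731).

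Of the 9 ER degradation genes, 4 were higher, 0 were lower and 5 did not pass. EDEM1, a mannosidase-like protein that marks misfolded glycoproteins, had 16.9, 17.4 and 17.2 FPKM in siGSE1 cells, against 13.4, 13.8 and 14.4 FPKM in control cells, a log2FC of 0.29 ± 0.05 (SE, adjusted p = 0.00103). SEL1L, the adaptor of the HRD1 ligase, had 22.9, 22.1 and 22.7 FPKM in siGSE1 cells, against 19.0, 19.9 and 18.3 FPKM in control cells, a log2FC of 0.22 ± 0.05 (SE, adjusted p = 0.00859). HERPUD1, a membrane protein that assembles the ligase, had 18.5, 19.5 and 17.5 FPKM in siGSE1 cells, against 14.9, 16.6 and 14.1 FPKM in control cells, a log2FC of 0.25 ± 0.07 (SE, adjusted p = 0.0134). These 3 did not overlap between groups. OS9, a lectin that reads trimmed glycans for the ligase, had 33.9, 35.4 and 33.3 FPKM in siGSE1 cells, against 29.9, 29.9 and 28.1 FPKM in control cells, a log2FC of 0.20 ± 0.05 (SE, adjusted p = 0.0157), again without overlap. The ligase gene itself, SYVN1, had 15.8, 14.2 and 15.9 FPKM in siGSE1 cells, against 13.6, 15.2 and 15.1 FPKM in control cells, with overlapping groups (log2 fold change 0.04, adjusted p = 0.718). EDEM2, which makes the first mannose cut, averaged 48.2 ± 1.13 FPKM in siGSE1 cells and 52.6 ± 0.86 FPKM in control cells (SD, n = 3 each), with all siGSE1 values below the control values and an adjusted p of 0.0561. EDEM3 had a log2 fold change of -0.10 (adjusted p = 0.379). Among the derlins, membrane proteins of the export channel, DERL1 and DERL2 had log2 fold changes of 0.14 and -0.01 and did not pass (adjusted p = 0.0874 and 0.935). DERL2 changed sign under 6 alternatives and SYVN1 under 1.

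Within-library ratios set related degradation genes against each other. The ratio of EDEM1 to EDEM2 was 0.354, 0.352 and 0.364 in siGSE1 cells and 0.252, 0.261 and 0.278 in control cells (exact permutation p = 0.1), and that of EDEM1 to EDEM3 was 2.52, 2.82 and 3.09 in siGSE1 cells and 2.07, 2.06 and 2.28 in control cells (exact permutation p = 0.1). The ratio of SEL1L to SYVN1 was 1.45, 1.55 and 1.43 in siGSE1 cells and 1.39, 1.31 and 1.21 in control cells (exact permutation p = 0.1). That of DERL1 to DERL2 was 1.639, 1.574 and 1.665 in siGSE1 cells and 1.548, 1.518 and 1.336 in control cells (exact permutation p = 0.1). The call of SEL1L was lost without siGSE1 replicate 1 and with trends of GC content and length removed (adjusted p from 4.97e-04 to 0.101 over the 17 alternatives). The call of HERPUD1 was lost without siGSE1 replicate 1, siGSE1 replicate 2 or control replicate 3 (adjusted p from 1.46e-04 to 0.0816 over the 17 alternatives). The call of OS9 was lost without siGSE1 replicate 1, siGSE1 replicate 2 or control replicate 3 and with trends of GC content and length removed (adjusted p from 0.00186 to 0.0914 over the 17 alternatives). SYVN1 overlaps MRPL49 on the other strand and FAU on the same strand, which had 89.5% and 259% as many counts. On the other strand, DERL2 overlaps MIS12 with 71.5%, and DERL1 overlaps TBC1D31 with 21.9%. Here and for the other members, overlap is that of gene spans, and shared exons were not examined.

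None of the 3 sensor genes passed, with log2 fold changes from -0.11 to 0.17 and adjusted p from 0.0968 to 0.790. ERN1, which encodes the sensor IRE1, had 5.74, 5.43 and 5.54 FPKM in siGSE1 cells, against 4.67, 6.11 and 7.04 FPKM in control cells. XBP1, whose mRNA is the substrate of IRE1, had 37.1, 37.1 and 36.7 FPKM in siGSE1 cells, against 28.7, 43.2 and 33.6 FPKM in control cells. In both genes the control libraries spanned a wider range than the siGSE1 libraries and included it. ATF6, the membrane-bound factor released by proteolysis, had 7.69, 7.47 and 7.06 FPKM in siGSE1 cells, against 6.12, 6.21 and 7.14 FPKM in control cells, and overlapped only through control replicate 3. The result for XBP1 rests on control replicate 2, without which its log2 fold change was 0.23 (adjusted p = 0.00471). ERN1 had a log2 fold change of -0.25 without control replicate 1 (adjusted p = 0.0257), and ATF6 of 0.22 without control replicate 3 (adjusted p = 0.0368). ATF6 also passed with TPM scaling. Gene counts do not show the splicing of XBP1 or the cleavage of ATF6, which are the steps by which these sensors act.

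At the channel, SEC61A1, the pore subunit, had 68.2, 66.6 and 72.0 FPKM in siGSE1 cells, against 62.2, 59.8 and 59.2 FPKM in control cells, a log2FC of 0.17 ± 0.05 (SE, adjusted p = 0.0358), without overlap. SEC61B, a small tail-anchored subunit, had 56.9, 61.1 and 65.8 FPKM in siGSE1 cells, against 52.8, 55.1 and 61.4 FPKM in control cells, and its groups overlapped (log2 fold change 0.10, adjusted p = 0.354). The ratio of SEC61A1 to SEC61B was 1.20, 1.09 and 1.09 in siGSE1 cells and 1.18, 1.08 and 0.964 in control cells (exact permutation p = 0.4). The call of SEC61A1 was lost without siGSE1 replicate 1, siGSE1 replicate 2, siGSE1 replicate 3 or control replicate 3, with upper quartile normalization and with trends of GC content and length removed (adjusted p from 0.00379 to 0.175 over the 17 alternatives). SEC61A1 overlaps MGLL and RUVBL1 on the other strand, which had 92.3% and 35.7% as many counts and were themselves called, with log2 fold changes of 0.50 and -0.34. Their part in its value was not tested.

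For these within-library ratios, 10 pairs were compared, chosen after their values were seen. The smallest exact two-sided permutation p that 3 libraries against 3 allow is 0.1, so none can pass 0.05 and no adjustment was made.

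**Figure D4:**
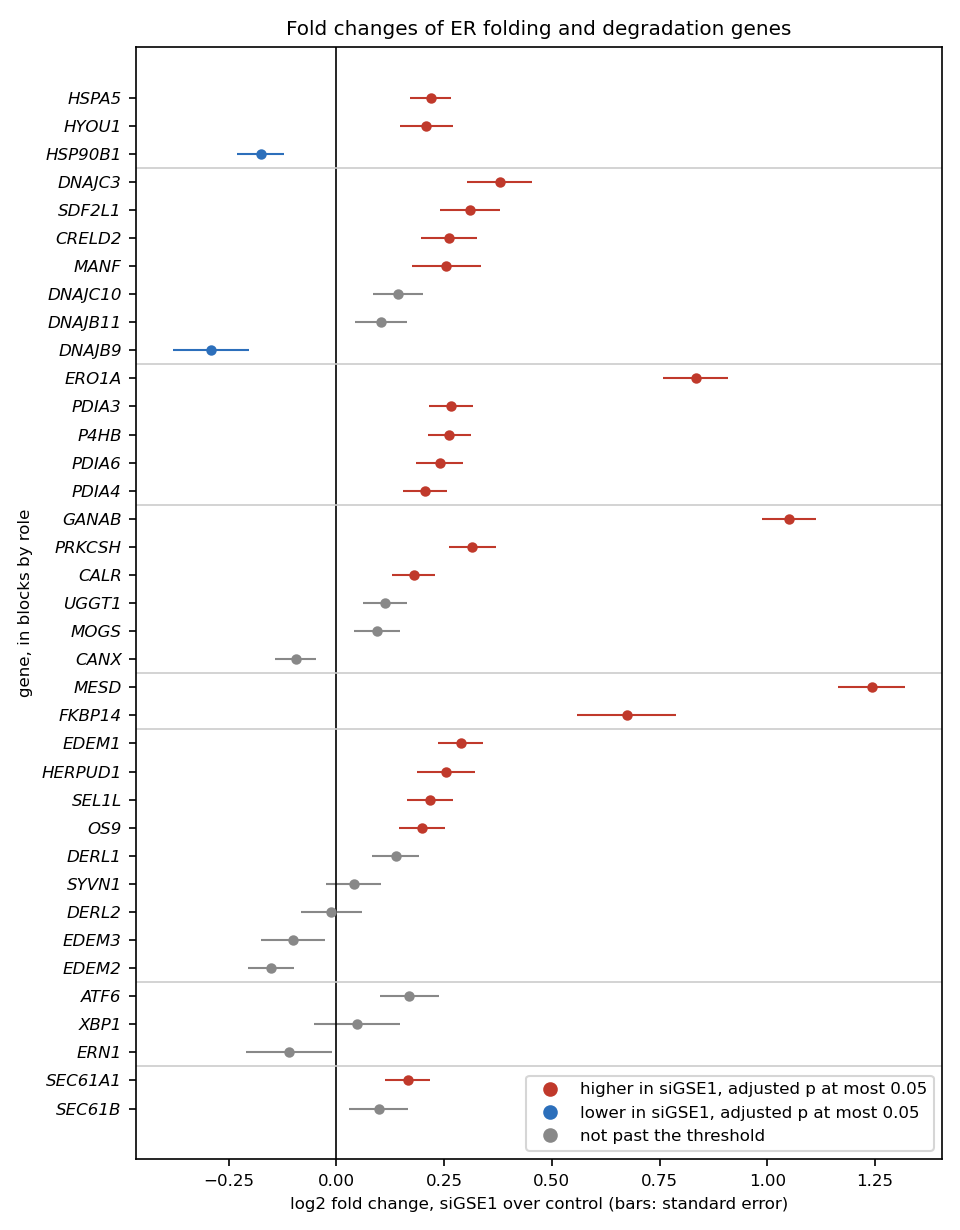
Log2 fold change of each gene, siGSE1 over control, with bars of 1 standard error, in blocks by role from HSPA5 to SEC61B. All 5 disulfide genes and both of MESD and FKBP14 lie above 0, while none of the 3 sensor genes passed the threshold.

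Read against the promoter elements, the calls were mixed. The 3 genes with an ERSE-II, HYOU1, SDF2L1 and HERPUD1, were all higher, with log2 fold changes of 0.21, 0.31 and 0.25. Of the 6 with an ERSE, 3 were higher (HSPA5, CRELD2 and CALR), 1 was lower (HSP90B1) and 2 did not pass (CANX and XBP1). With a UPRE core, HYOU1 was higher and DNAJC10 did not pass. Of the 19 higher members with an entry, 6 held any of the 3 elements, as did 1 of 2 lower members and 3 of 12 that did not pass. Of the 4 largest increases, MESD, GANAB and ERO1A had no match and FKBP14 had no entry. Only exact matches at the first listed start were counted, so elements with other letters would be missed. PDIA6, with an ERSE at its other start, is counted here as having none. Over all tested genes with an entry, 14 held an ERSE, of which 3 were higher and 3 lower. An ERSE-II was held by 10, of which 5 were higher and 0 lower. A UPRE core was held by 102, of which 26 were higher and 8 lower. Of all genes tested, with or without an entry, 10.9% were higher and 9.02% lower. The counts per element include the members, which were 6 of the 14 genes with an ERSE, 3 of the 10 with an ERSE-II and 2 of the 102 with a UPRE core. All 3 higher genes with an ERSE were members, as were 3 of the 5 higher genes with an ERSE-II.

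Other genes of the same compartments, with the receptor family that MESD or LRPAP1 serves, were taken from 10 lists of 151 genes. Of the 151, 144 were tested. Of these, 30 were higher and 12 lower, with a median log2 fold change of 0.06. Together the lists were thus called higher in 20.8% and lower in 8.33% of their tested genes, against 10.9% and 9.02% over all genes. Among tested genes with at least 10 FPKM on average, 16% were higher and 16.4% lower, and the lists were not split by abundance. Each list below is to be read against these shares. The lists were chosen with earlier results of these data known, so their counts are descriptions. Without siGSE1 replicate 2 and without siGSE1 replicate 3, 27 list genes were called in each case, against 42. Over the whole table, 2092 and 1876 genes were called there, against 3167 in the main analysis. With TPM scaling 49 list genes were higher and 8 lower.

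Among 15 tested further oxidoreductases, 4 were higher, 0 lower and 11 did not pass. PRDX4 averaged 57.4 ± 0.73 FPKM in siGSE1 cells and 37.1 ± 4.23 FPKM in control cells (SD, n = 3 each, log2 fold change 0.60, adjusted p = 2.92e-05). It is the peroxiredoxin of the ER, which also passes oxidizing power to isomerases. TMX3 averaged 6.48 ± 0.79 FPKM in siGSE1 cells and 4.49 ± 0.14 FPKM in control cells (SD, n = 3 each, log2 fold change 0.50, adjusted p = 5.14e-04). It is a membrane-bound isomerase. ERP44, which retains ERO1 in the early secretory pathway, and PDIA5 were the others. Without siGSE1 replicate 2, 2 were higher. Of 25 further chaperones and prolyl isomerases, 5 were higher, 0 lower and 20 did not pass, with the smallest adjusted p in the calcium-binding proteins RCN1 (log2 fold change 0.28, adjusted p = 0.00299) and CALU (0.20, adjusted p = 0.0125). The called genes with the largest fold change were FKBP7 (0.57 on the log2 scale, adjusted p = 0.0440) and CNPY4 (0.36, adjusted p = 0.0426), each called under 9 of the 17 alternatives. The call of CALU was lost without siGSE1 replicate 3 and with trends of GC content and length removed (adjusted p up to 0.101). This list had 2 higher without siGSE1 replicate 1, 2 or 3, and 3 without control replicate 1.

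Lectins and cargo receptors had 3 higher, 0 lower and 6 not passing of 9. SURF4 averaged 125 ± 5.06 FPKM in siGSE1 cells and 92.7 ± 4.25 FPKM in control cells (SD, n = 3 each, log2 fold change 0.41, adjusted p = 6.56e-05). It is a cargo receptor of ER exit. MLEC averaged 47.7 ± 1.35 FPKM in siGSE1 cells and 36.1 ± 3.56 FPKM in control cells (SD, n = 3 each, log2 fold change 0.38, adjusted p = 6.39e-04). Its product, malectin, binds glycans that carry glucose residues left by glucosidase I. The KDEL receptor genes, which return escaped chaperones to the ER, had log2 fold changes of 0.15 (KDELR2, adjusted p = 0.0404), -0.11 (KDELR1, adjusted p = 0.132) and -0.07 (KDELR3, adjusted p = 0.750). The call of KDELR2 was lost under 10 of the 17 alternatives, among them leaving out any siGSE1 library or control replicate 1 or 3.

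Of 16 other sensors and effectors of ER stress, 4 were higher, 3 lower and 9 did not pass. MBTPS1 averaged 17.1 ± 0.83 FPKM in siGSE1 cells and 12.9 ± 0.11 FPKM in control cells (SD, n = 3 each, log2 fold change 0.37, adjusted p = 1.63e-04). It encodes the site-1 protease, the first of the enzymes that cleave ATF6. CREB3L2 averaged 10.3 ± 0.20 FPKM in siGSE1 cells and 7.90 ± 0.43 FPKM in control cells (SD, n = 3 each, log2 fold change 0.35, adjusted p = 4.43e-04). It is a membrane-bound factor of the ATF6 kind. WFS1 averaged 11.5 ± 0.63 FPKM in siGSE1 cells and 14.2 ± 0.97 FPKM in control cells (SD, n = 3 each, log2 fold change -0.33, adjusted p = 0.00320). It is an ER membrane protein that restrains ATF6. MBTPS2, the site-2 protease, had a log2 fold change of -0.21 (adjusted p = 0.0163). The call of MBTPS2 was lost with TPM scaling, under both limma fits and without siGSE1 replicate 3 (adjusted p up to 0.101). The sensor PERK (EIF2AK3) averaged 4.53 ± 0.05 FPKM in siGSE1 cells and 4.36 ± 0.66 FPKM in control cells (SD, n = 3 each) and ATF4 122 ± 1.63 FPKM in siGSE1 cells and 114 ± 4.92 FPKM in control cells (SD, n = 3 each), and neither was called (adjusted p = 0.913 and 0.394). The changes furthest from 0 on this list were in targets of ATF4, in opposite directions. TRIB3, a pseudokinase gene, had 90.3, 88.0 and 90.8 FPKM in siGSE1 cells, against 53.4, 52.3 and 79.4 FPKM in control cells, a log2FC of 0.52 ± 0.11 (SE, adjusted p = 0.00275), and its call was lost with a robust prior (adjusted p = 0.136). DDIT3 averaged 5.13 ± 0.42 FPKM in siGSE1 cells and 7.02 ± 0.97 FPKM in control cells (SD, n = 3 each, log2 fold change -0.47, adjusted p = 0.0313). It encodes the transcription factor CHOP, and its call was lost with TPM scaling and without any of siGSE1 replicates 1, 2 and 3 or control replicate 3 (adjusted p up to 0.119). The number of lower genes was 1 without siGSE1 replicate 3.

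Of 24 tested further degradation factors, 4 were higher, 2 lower and 18 did not pass. VCP averaged 134 ± 1.57 FPKM in siGSE1 cells and 153 ± 4.78 FPKM in control cells (SD, n = 3 each, log2 fold change -0.22, adjusted p = 0.00453). It is the ATPase that pulls substrates out of the membrane. MARCHF6 averaged 11.5 ± 0.33 FPKM in siGSE1 cells and 9.59 ± 0.39 FPKM in control cells (SD, n = 3 each, log2 fold change 0.23, adjusted p = 0.00537). It is a ligase of the ER membrane, and its call was lost with trends of GC content and length removed (adjusted p = 0.0650). AUP1, which recruits the ubiquitin-conjugating enzyme UBE2G2, had a log2 fold change of 0.24 (adjusted p = 0.00653). RNF5, another ligase of the membrane, had a log2 fold change of -0.23 (adjusted p = 0.0351). The lower count was 1 without any of siGSE1 replicates 1, 2 and 3 or control replicate 3. The call of RNF5 was lost under 10 of the 17 alternatives, which were these 4, leaving out control replicate 1, the replicate block, DESeq2, TPM scaling, no normalization factors and no low-count filter (adjusted p up to 0.128).

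For entry into the ER, 2 of 17 tested genes were higher, 1 lower and 14 did not pass. These shares, 11.8% higher and 5.88% lower, lay near the 10.9% and 9.02% of all genes tested. SEC11A averaged 34.9 ± 1.43 FPKM in siGSE1 cells and 28.8 ± 0.54 FPKM in control cells (SD, n = 3 each, log2 fold change 0.25, adjusted p = 0.00245). It is a catalytic subunit of signal peptidase. TRAM1 averaged 143 ± 3.96 FPKM in siGSE1 cells and 116 ± 8.93 FPKM in control cells (SD, n = 3 each, log2 fold change 0.27, adjusted p = 0.00313). It is a channel-associated membrane protein. SSR1 averaged 8.50 ± 0.58 FPKM in siGSE1 cells and 10.3 ± 0.45 FPKM in control cells (SD, n = 3 each, log2 fold change -0.31, adjusted p = 0.00243). It is a subunit of the translocon-associated protein complex. Without control replicate 2, 4 were higher. Of 12 genes of oligosaccharyltransferase, the enzyme that attaches N-glycans, 1 was higher (MAGT1, log2 fold change 0.18, adjusted p = 0.0401) and 11 did not pass, among them both catalytic subunits STT3A and STT3B (adjusted p = 0.988 and 0.976). The 1 call is 8.33% of that list, against 10.9% of all genes tested called higher. Without control replicate 2, 3 of the 12 genes were higher, and without any other single library 0 were.

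For exit, the COPII coat had 3 of 12 higher, 3 lower and 6 not passing. SEC13 averaged 31.5 ± 1.46 FPKM in siGSE1 cells and 24.7 ± 1.51 FPKM in control cells (SD, n = 3 each, log2 fold change 0.32, adjusted p = 0.00148). It is a subunit of the outer coat. SEC23B averaged 40.5 ± 0.56 FPKM in siGSE1 cells and 47.4 ± 2.31 FPKM in control cells (SD, n = 3 each, log2 fold change -0.25, adjusted p = 0.00392). It is a subunit of the inner coat. SEC24D and the GTPase gene SAR1B had log2 fold changes of 0.28 and -0.31 (adjusted p = 0.00774 and 0.00743). The call of SEC24D was lost without siGSE1 replicate 3 and with trends of GC content and length removed (adjusted p up to 0.0572). That of SAR1B was lost without siGSE1 replicate 2 and under both limma fits (adjusted p up to 0.0764). The count was 1 higher without siGSE1 replicate 3 and 1 lower without siGSE1 replicate 2. Of 6 ER-phagy receptor genes, ATL3 alone was called, with a log2 fold change of 0.21 (adjusted p = 0.0185). None of the 6 was called without siGSE1 replicate 2 or 3, and 2 were without control replicate 2.

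**Figure D5:**
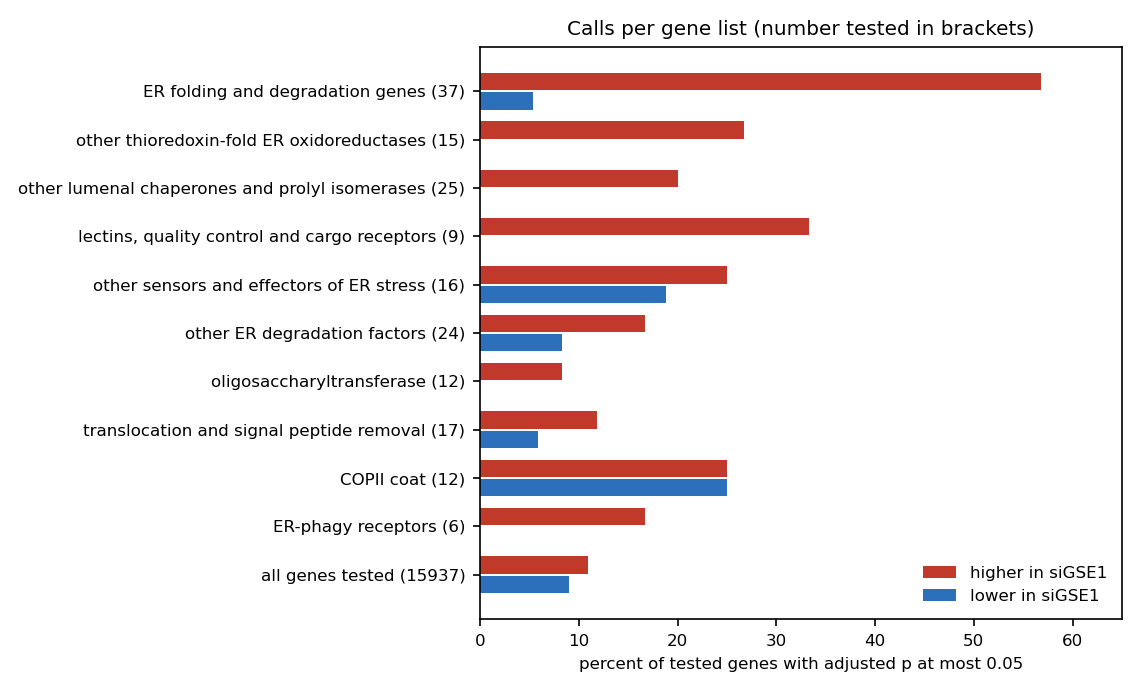
Percent of tested genes called higher (upper bar) or lower (lower bar) in siGSE1 cells for the 37 ER genes, 9 of the 10 lists and all genes tested, with the number tested in brackets. The 37 genes stand at 56.8% higher and 5.41% lower, and all genes tested at 10.9% and 9.02%.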

How the data were processed

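The deposited table holds, per the file headers, raw read counts and FPKM for 60612 genes in 6 libraries of total RNA. The FPKM values came out from the counts, the exonic gene sizes and the library totals within 0.0051 for 100% of values. The sources differ on how the authors made it. The submitters' processing notes list HISAT2, HTSeq, StringTie 1.3.3b and edgeR with hg38, without roles, while the series text names STAR and DESeq2. No source used here says whether counting used strand.

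Counts were tested with edgeR 4.0.16 in R 4.3.3 (quasi-likelihood F test, TMM factors, group as the only term) on the 15937 genes kept by filterByExpr (min.count 10, min.total.count 15). Benjamini-Hochberg adjustment ran over all of these, with calls at 0.05 or less, and each SE was taken as the size of the fold change (log2) over the root of F. The counts per library set the precision, and intervals from them would cover counting error only. The procedure was also run on simulated counts with few changed genes and with dispersions estimated from these data. That run cannot check scaling where many genes change, or replicates that may be technical. Alternatives were other normalizations, TPM scaling, no low-count filter, DESeq2 1.42.0, limma 3.58.1 on log2(FPKM + 1) and log2(FPKM + 0.1), a robust prior, a replicate block, removal of GC and length trends, and leaving out each library. GC content came from reference transcripts and was available for 99.27% of tested genes. Each number in the labels only names a replicate, so samples were not paired.

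The 37 genes and the 10 lists were chosen with earlier results of these data known. Members with a call and no overlap between groups, the sensors and 6 main chaperones are given with all values. From each list up to 2 called genes per direction with the smallest adjusted p are named, and MESD clients of at least 1 FPKM, of which some are not reported here. Values of MOGS, SYVN1, SEC61B, LRPAP1, ERP44, PDIA5, EIF2AK3, ATF4, TRIB3, DDIT3, FKBP7, CNPY4, STT3A, STT3B and the KDEL receptor genes were added after they were seen.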

Additional observations from a re-analysis of the deposited data

How the results depend on the processing

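Of the 23 called members, 13 were called under all 17 alternatives and 10 lost the call under at least 1, each named in the results. Of the 14 members without a call, 6 were called under none of the alternatives. Over the whole table, genes called lower numbered 929 with TPM scaling, 887 with limma on log2(FPKM + 1) and 909 on log2(FPKM + 0.1), against 1437. The number of members called lower was 0 under each of these, against 2, and the members' median log2 fold change was 0.26 with TPM scaling, against 0.20. The list genes called higher were 49 with TPM scaling. Leaving out 1 library gave 1876 to 3582 genes called, 1051 to 1929 higher and 825 to 1653 lower. It gave 14 to 23 members called, 13 to 22 higher and 0 to 3 lower, with a median from 0.15 to 0.22. It gave 27 to 51 list genes called, 19 to 37 higher and 8 to 14 lower. The log2 fold change of GSE1 lay between -1.06 and -1.003 there. Of the members, 4 changed sign under some alternative, and none was called where its sign changed. Leaving out 1 library moved the log2 fold change of SYVN1 between -0.0045 and 0.093, that of DERL2 between -0.050 and 0.042, that of ERN1 between -0.25 and 0.0074 and that of XBP1 between -0.077 and 0.23. DERL2 was also at 0.013 without normalization factors, 0.050 with TPM scaling, 0.010 with limma on log2(FPKM + 1) and 0.012 on log2(FPKM + 0.1). With the replicate number as a block, 3097 genes, 23 members and 38 list genes were called. Deviations of same-numbered libraries correlated at 0.02, -0.0185 and 0.0024, so the numbers share no visible pairing. DESeq2 called 2832 genes and the same number of members. The cause of these changes was not tested. At 3 libraries a group, a p that misses the threshold does not show that a gene did not differ.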
